A study of Homo sapiens with 6 samples.

Results

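Neuronal microtubule-associated proteins were followed as a set of 10 genes of the 60676 listed in the count table: MAP1A, MAP1B, MAP1S, MAP2, MAP4, MAP6, MAP7, MAPT, DCX and DCLK1. The set was chosen because the difference in MAP1A between the groups compared here was among the strongest increases, so this difference is described below without a test. The other members were taken as its relatives by name and function, with earlier results of these libraries known. All 10 symbols matched an Ensembl identifier, and all 10 genes reached a mean of 1 FPKM (counted fragments scaled by gene length and library total) in each group separately.

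Microtubule-associated proteins bind the microtubule lattice and set how stable, bundled and dynamic the microtubules of axons and dendrites are. In neurons the balance between them changes during differentiation, with MAP1B, tau and doublecortin typical of growing axons and migrating cells, and MAP1A and MAP2 typical of maturing dendrites. MAP4, MAP7 and MAP1S also act in many cells that are not neurons, so the name of the set describes its best known members more than all of them.

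The libraries were made from SK-N-BE, a neuroblastoma cell line of human origin that takes on neuronal features with retinoic acid. The study asked how loss of the long noncoding RNA CyCoNP, a transcript of neural progenitors encoded by LINC02381, alters the transcriptome during neuronal differentiation. The control group received a scrambled siRNA (si-SCR) and the other group pooled siRNAs that target the second CyCoNP exon (si-CyCoNP), with 3 libraries each. They are called controls and knockdown libraries below. Cells of both groups were transfected and were harvested 1.5 days after the start of differentiation in 10 μM retinoic acid, so no untransfected or undifferentiated cells were compared and all values come from 1 cell line. The labels do not state that replicates were separate cultures, and the p-values measure only the spread between these libraries.

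Total counts ranged from 3762009 to 4799407 per library and did not separate the groups (exact permutation test, two-sided, p = 0.9, where 0.1 is the smallest value that 3 against 3 can give). LINC02381, the targeted gene, was counted 274, 208 and 315 times in the controls and 20, 30 and 12 times after knockdown, which left 7.30% of its control level over all transcripts of the gene. The si-SCR library of replicate 3 lay nearest to the other group on the first principal component, at -20.95. Its fellow controls lay at -34.77 and -35.46, and si-CyCoNP at 29.17 to 32.21. Members that passed the adjusted p only without that library are given both ways below. All 8 sympathoadrenal markers examined were expressed and 6 passed the test described below, 1 upward and 5 downward, beside 28.4% of all tested genes. The summed level of the 8 markers was 1832 to 1982 FPKM in controls and 1692 to 1821 FPKM after knockdown. Within that sum mean PHOX2A fell from 734 to 352 FPKM, while mean MYCN rose from 428 to 806 FPKM. Of 10 mesenchymal-type markers PRRX1 and COL1A2 were at 0 in every library, and the sum was 63.4 to 70.6 FPKM in controls and 52.7 to 60.2 FPKM after knockdown. Most of that sum was VIM, and the other 9 mesenchymal-type markers together gave 9.24 to 11.1 FPKM and 11.2 to 13.9 FPKM, in the opposite direction. These 9 were split, as mean FN1 rose from 0.697 to 5.41 FPKM while mean SNAI2 fell from 7.08 to 3.07 FPKM. FN1, COL1A1 and FOSL1 reached a mean of 1 FPKM only after knockdown. Among the Schwann and glial markers SOX10 was at 0 in every library. The part of these marker differences in the results below was not tested, and in bulk RNA fewer cells of a type and less RNA per cell cannot be told apart.

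The study examined CyCoNP as a partner of the microRNA miR-4492, so the transcripts of the 10 genes were searched for the 7 bases CCAGCCC that pair with the seed of miR-4492, bases 2 to 8. In the microRNA line below capitals mark the seed, and in the transcript lines they mark the 7-base match with 10 bases on each side. The microRNA is from RefSeq and the transcripts are from GENCODE 44 on GRCh38, read 5′ to 3′ on the sense strand alone. The windows shown are those of CyCoNP itself, of the coding sequence of MAP1A, of the 3′ end of MAP1S and of the coding sequence of MAP6, since MAP1A and MAP6 had the largest differences in either direction and MAP1S rose with a match in a very short 3′ untranslated region. Other matches, in untranslated regions too, are given by number only. The study itself predicted more sites in CyCoNP by a different criterion, and recovered miR-4492 together with CyCoNP from SK-N-BE extracts. Its CyCoNP reporter no longer responded to blocking of miR-4492 once those predicted sites were deleted.
miR-4492: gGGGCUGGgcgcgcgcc
CyCoNP, first match, chr12:54126367-54126393, plus strand: agtgtagcccCCAGCCCgggcgcctga
CyCoNP, next match, chr12:54132385-54132411, plus strand: actgcaccttCCAGCCCtgcccataag
MAP1A, coding, chr15:43522979-43523005, plus strand: ccagacacccCCAGCCCagaagggaac
MAP1A, coding, chr15:43524386-43524412, plus strand: tccaggagaaCCAGCCCttggagaagc
MAP1A, coding, chr15:43528220-43528246, plus strand: acctgcctcaCCAGCCCtgtctgaggg
MAP1A, coding, chr15:43528557-43528583, plus strand: ccaactgaaaCCAGCCCtaacccccca
MAP1S, 3′ untranslated region, chr19:17734448-17734474, plus strand: cccactcagcCCAGCCCgcctgtccct
MAP6, coding, chr11:75668143-75668169, minus strand: agagacgcagCCAGCCCagggcgagtt
MAP6, coding, chr11:75667925-75667951, minus strand: gcagcgaataCCAGCCCtccgacgctc

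MAP1A carried 4 matches, all within its coding sequence of 8412 bases and none in its 3′ untranslated region of 1387 bases. Among the 455 tested genes with a coding sequence over 5000 bases, 61.8% held at least 1 match and 18.5% held 4 or more. MAP1S carried 1 coding match and 1 in a 3′ untranslated region of only 85 bases, against 12.4% of the tested genes whose 3′ untranslated region was under 1000 bases. MAPT had 2 coding matches and the other 3′ untranslated one, in a region of 4163 bases, and 38.5% of tested genes with such a region over 3000 bases held at least 1. DCX had no match anywhere in a transcript of 9086 bases. MAP1B and MAP2 had 1 coding match each, MAP4 had 2, MAP7 had 1, MAP6 had 2 with 1 in its 5′ untranslated region, and DCLK1 had 1 coding match with 3 in its 5′ untranslated region. Over the 10490 tested genes with a 3′ untranslated region the median log2 fold change was 0.008 with a match and -0.01 without. The direction was not the same in each class of length. For regions under 1000 bases the medians were -0.03 with a match and 0.002 without. From 1000 to 3000 bases they were 0.046 and 0.001, and over 3000 bases -0.015 and -0.058. Differences between these medians were not tested. A match of letters is a description of the transcript and says nothing about binding, in these cells or in others.

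**Figure D1:**
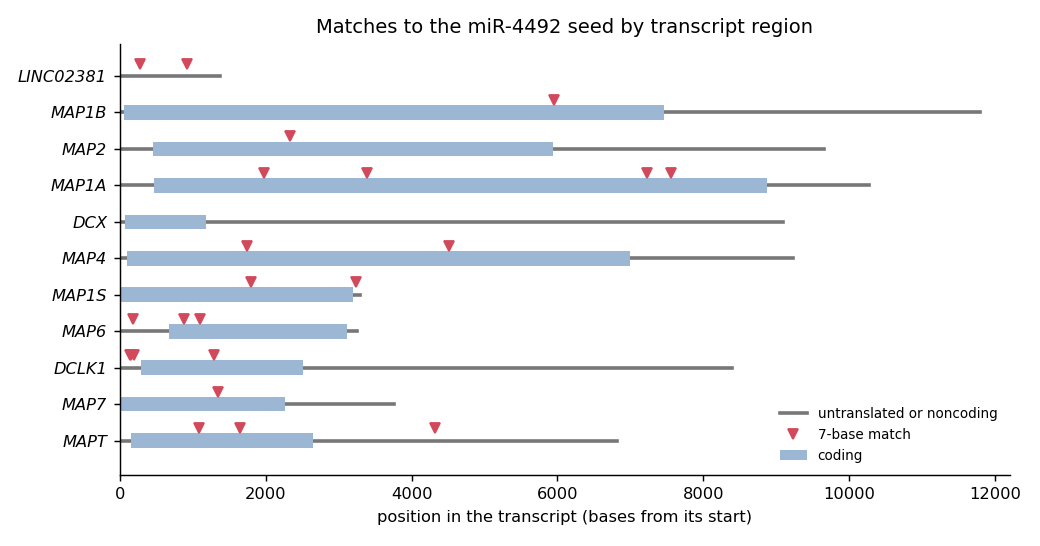
Transcripts of LINC02381 (CyCoNP) and of the 10 genes drawn from their first base, with position in bases on the horizontal axis, coding sequence as blue bars, other sequence as grey lines and each 7-base match to the miR-4492 seed as a red triangle. The 4 matches of MAP1A lie inside its coding bar, and MAP1S and MAPT have a triangle to the right of theirs.

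Compared with si-SCR, the si-CyCoNP libraries held more MAP1A and MAP1S, less MAP2, MAP6, MAP7 and DCX, and showed no difference past the threshold in MAP1B, MAP4, MAPT and DCLK1. A gene was called higher or lower at an adjusted p under 0.05 (edgeR, adjusted over all 13966 genes tested) together with a log2 fold change over 1 or under -1. By this rule 1 member was called higher, which was MAP1A, beside 2.28% of all tested genes. Likewise 1 member was called lower, which was MAP6, beside 2.98% of all tested genes. With no minimum fold change 5 of the 9 members other than MAP1A passed the adjusted p, 1 upward and 4 downward, beside 28.4% of all tested genes in either direction. The normalised levels of the groups did not overlap for 5 of the 10 genes, beside 40.2% of all tested genes. Since MAP1A was chosen on this contrast and its relatives with results known, nothing is read from these shares. The median log2 fold change was -0.17 over the 10 genes and -0.18 without MAP1A, against 0.01 over all tested genes.

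**Figure D2:**
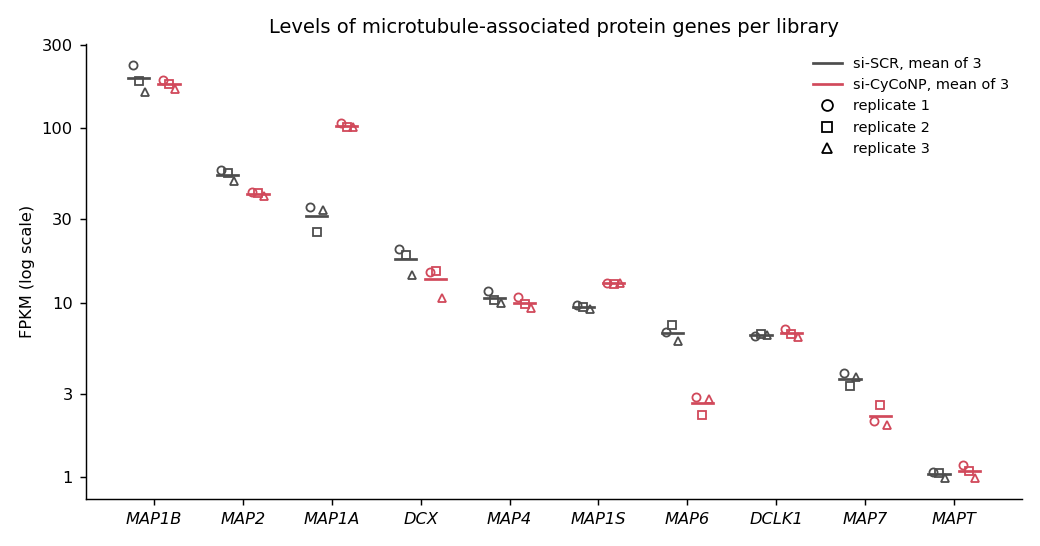
Level of each of the 10 genes in FPKM on a log axis, with 1 symbol per library (circle, square and triangle for replicates 1, 2 and 3), grey for si-SCR and red for si-CyCoNP, and a line at each group mean of 3. MAP1A rises from 25.5 to 35.3 FPKM in controls to 102 to 106 FPKM after knockdown, MAP6 falls from 6.01 to 7.40 FPKM to 2.27 to 2.88 FPKM, and the DCX groups overlap.

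The MAP1 family is made of large proteins cut into a heavy and a light chain after translation. MAP1A (ENSG00000166963, chr15:43510958-43531620, plus strand of GRCh38, 6 exons) encodes the member that prevails in mature neurons, where it binds dendritic microtubules and scaffold proteins of the synapse. Its level was 35.3, 25.5 and 33.8 FPKM in controls and 106, 102 and 102 FPKM after knockdown. Every si-CyCoNP library lay above every control, and the spread was wider among controls, with a coefficient of variation of 16.6% against 2.61%. The lowest si-CyCoNP library had 4500 MAP1A counts and the highest control 1720. The fitted log2 fold change was 1.64 with an SE of 0.09, a level 3.13 times that of si-SCR. By p-value MAP1A ranked 4 among all tested genes with a positive log2 fold change, called or not. That rank restates why the set was chosen and is no test of it. This difference chose the set and is given as a description.

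MAP1B (ENSG00000131711, chr5:72107234-72209565, plus strand) encodes the relative that appears earliest in development and is abundant in growing axons. It was measured at 231, 187 and 160 FPKM in controls and at 188, 179 and 167 FPKM after knockdown. The highest and the lowest of all 6 libraries were both controls, with the si-CyCoNP libraries between them. The log2 fold change of -0.18 with a 95% interval from -0.38 to 0.02 missed the threshold (edgeR, adjusted p = 0.177). Without the si-SCR library of replicate 3 the value was -0.32 (edgeR, adjusted p = 2.77e-05). Without the si-SCR library of replicate 1 it was -0.02, so the side of the threshold and the size depended on single control libraries.

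MAP1S (ENSG00000130479, chr19:17719242-17734513, plus strand) encodes the short and widely expressed member of the family, which also links microtubules to autophagy. The si-SCR libraries held 9.68, 9.48 and 9.24 FPKM and the si-CyCoNP libraries 12.9, 12.8 and 13.0 FPKM. The groups were tight and well apart, with 176 to 218 counts against 265 to 305. MAP1S was 1.30-fold higher, a log2 fold change of 0.38 with an SE of 0.11 (edgeR, adjusted p = 0.00853), which is under the 2-fold limit of a call. The 3 genes of the MAP1 family gave a large difference, no difference past the threshold and a small one, in the order MAP1A, MAP1B and MAP1S.

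MAP2, MAP4 and tau share a repeat domain that lies along the microtubule. MAP2 (ENSG00000078018, chr2:209424047-209734147, plus strand) encodes the classic dendritic MAP of neurons. Its level was 57.6, 55.1 and 49.9 FPKM in controls and 43.1, 42.3 and 40.9 FPKM after knockdown. All si-CyCoNP libraries lay below all controls. MAP2 fell to 74.0% of its control level, which is -0.43 on the log2 scale with an SE of 0.08 (edgeR, adjusted p = 0.000129). It rested on 2000 or more counts in every library.

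MAP4 (ENSG00000047849, chr3:47850690-48089272, minus strand) encodes the widely expressed relative that stabilises microtubules in dividing and resting cells. It was measured at 11.6, 10.4 and 9.92 FPKM in controls and at 10.8, 9.84 and 9.28 FPKM after knockdown. The groups overlapped, and the log2 fold change of -0.16 with an SE of 0.09 missed the threshold (edgeR, adjusted p = 0.206). Without the si-SCR library of replicate 3 the value was -0.23 (edgeR, adjusted p = 0.0412).

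MAPT (ENSG00000186868, chr17:45894527-46028334, plus strand) encodes tau, the axonal MAP. It was the least abundant of the 10 genes, at 1.08, 1.05 and 0.995 FPKM in controls and at 1.17, 1.09 and 0.986 FPKM after knockdown, from 59 to 84 counts per library. These libraries were interleaved. The log2 fold change was -0.01 with a 95% interval from -0.37 to 0.36 (edgeR, adjusted p = 0.984), so a change inside that interval was not detectable at this depth, and the sign of this value turned in some alternatives.

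MAP6 and MAP7 belong to neither family. MAP6 (ENSG00000171533, chr11:75586918-75669038, minus strand) encodes the stable tubule only polypeptide, which protects neuronal microtubules from cold and drugs. It was found at 6.77, 7.40 and 6.01 FPKM in controls and at 2.88, 2.27 and 2.81 FPKM after knockdown. The highest si-CyCoNP library was below the lowest control by a wide margin, with 62 to 89 counts against 179 to 187. MAP6 fell to 37.9% of its control level, which is -1.40 on the log2 scale with an SE of 0.15 (edgeR, adjusted p = 3.82e-08). By p-value it ranked 142 among all tested genes with a negative log2 fold change, called or not. When a difference of more than 1 log2 unit was itself tested for, MAP6 was not called.

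MAP7 (ENSG00000135525, chr6:136342281-136550819, minus strand) encodes ensconsin, which recruits the motor kinesin-1 to microtubules. Its level was 3.93, 3.32 and 3.76 FPKM in controls and 2.10, 2.59 and 1.99 FPKM after knockdown. Again the groups stood apart, although on only 45 to 98 counts per library. The log2 fold change was -0.79 with a 95% interval from -1.16 to -0.41 (edgeR, adjusted p = 0.00155), and MAP7 was at 57.8% of its control level.

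DCX and DCLK1 encode proteins with paired doublecortin domains, which bind between protofilaments. DCX (ENSG00000077279, chrX:111293779-111412429, minus strand) is doublecortin, a protein of migrating and immature neurons. It was measured at 20.3, 18.8 and 14.5 FPKM in controls and at 15.1, 15.1 and 10.6 FPKM after knockdown. The groups overlapped, as the replicate 3 control lay below 2 of the si-CyCoNP libraries, and replicate 3 was the lowest library in each group. DCX passed the threshold in the count fit, at -0.46 on the log2 scale with an SE of 0.12 (edgeR, adjusted p = 0.00503). On the deposited FPKM with a pseudocount of 1 it did not, at -0.37 (limma, adjusted p = 0.181).

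DCLK1 (ENSG00000133083, chr13:35768652-36131382, minus strand) encodes a doublecortin-like protein that also carries a kinase domain. The si-SCR libraries held 6.43, 6.58 and 6.53 FPKM and the si-CyCoNP libraries 7.06, 6.61 and 6.38 FPKM. The controls lay inside the range of the knockdown libraries. The log2 fold change was -0.03 with a 95% interval from -0.22 to 0.16 (edgeR, adjusted p = 0.85), and its sign turned when library totals alone were used for scaling.

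**Figure D3:**
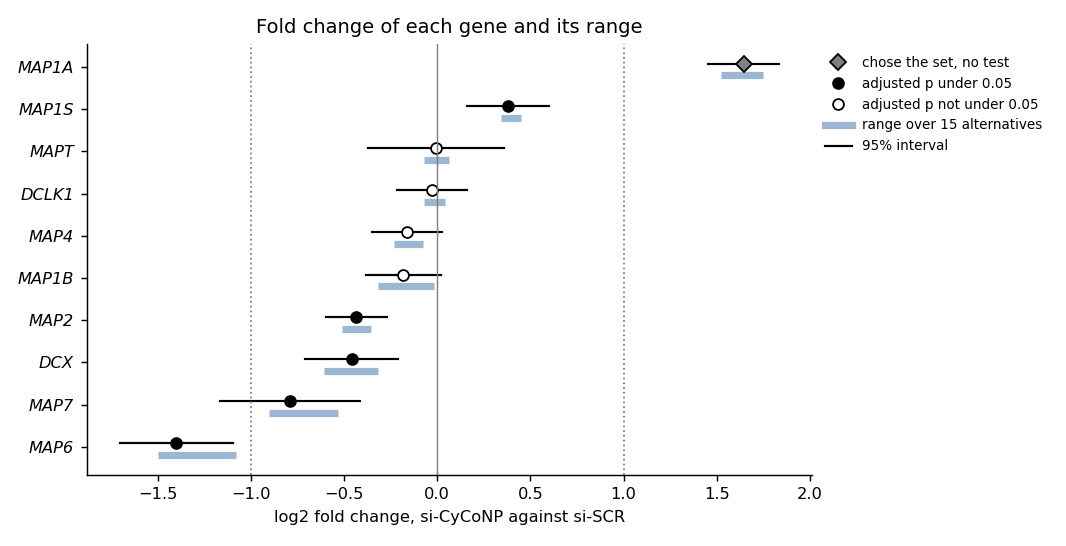
Fitted log2 fold change of each gene in si-CyCoNP against si-SCR on the horizontal axis with its 95% interval as a black line, filled circles for an adjusted p under 0.05, open circles otherwise and a grey diamond for MAP1A, which chose the set. Blue bars give the range over 15 alternative analyses and dotted lines mark -1 and 1, with MAP1A at 1.64 and MAP6 at -1.40 the only genes beyond them.

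Levels of different genes can be set side by side only per length, and the deposited FPKM use a length close to that of all annotated exons of a gene, which for MAP6 is 6433 bases against 3252 in its canonical transcript. In si-SCR the order of mean FPKM was MAP1B, MAP2, MAP1A, DCX, MAP4, MAP1S, MAP6, DCLK1, MAP7 and MAPT, and of these neighbours only MAP6 and DCLK1 overlapped between libraries. In si-CyCoNP the order was MAP1B, MAP1A, MAP2, DCX, MAP1S, MAP4, DCLK1, MAP6, MAP7 and MAPT. There DCX overlapped MAP1S and MAP6 overlapped MAP7, while the other neighbours were apart. MAP1A thus passed MAP2, MAP1S passed MAP4, and MAP6 dropped from above to below DCLK1 in mean level, although MAP6 and DCLK1 were not apart in the controls. Scaled to the canonical transcript instead, the order of the means in controls stayed the same, with DCX overlapping MAP4 and MAP1S overlapping MAP6. After knockdown DCX then came after MAP1S and MAP4, and it overlapped MAP4 and DCLK1.

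The summed level of the 10 genes was 334 ± 45.3 FPKM (SD, n = 3) in controls and 373 ± 17.5 FPKM after knockdown, and the libraries of the groups overlapped. Without MAP1A the sum was 303 ± 43.9 FPKM against 269 ± 15.4 FPKM, again with overlap. The make-up differed more than the sum. MAP1A gave 9.19%, 7.88% and 11.5% of the summed level in controls and 27.3%, 27.2% and 28.7% after knockdown. MAP1B gave 60.2%, 57.6% and 54.3% in controls and 48.3%, 48.0% and 47.1% after knockdown, although its own level did not change past the threshold. MAP2 gave 16.3% ± 1.11 in controls and 11.3% ± 0.237 after knockdown. The ratio of MAP1A to MAP1B was 0.153, 0.137 and 0.211 in controls and 0.566, 0.567 and 0.611 after knockdown. These shares hold for the lengths behind the deposited FPKM, contain the MAP1A difference that chose the set, and shares of 1 sum move together, so no test is given.

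**Figure D4:**
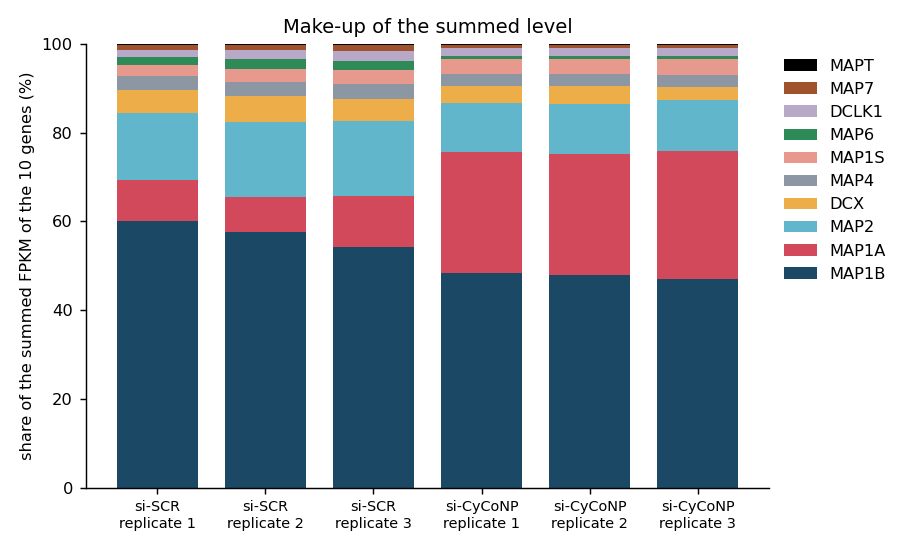
Share of each gene in the summed FPKM of the 10 genes, in percent, as stacked bars from 0 to 100 for each of the 6 libraries. The red band of MAP1A widens from 7.88% to 11.5% in controls to 27.2% to 28.7% after knockdown.

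The genes whose pattern was most like that of MAP1A were PSMD6, FAM241B and TUG1. Their Pearson correlations over the 6 libraries were 0.99913, 0.99886 and 0.99818 in log2 CPM, the counts scaled to the normalised library size. PSMD6 encodes a proteasome subunit and TUG1 is a long noncoding RNA. PSMD6 differed by a log2 fold change of 0.47, FAM241B by 0.81 and TUG1 by 0.43, all less than MAP1A. Across 2 groups such a correlation mostly reports the group difference, and 51 genes had a value over 0.99.

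The other genes of microtubule regulation were taken as a list of 75 in 7 roles, of which 63 were tested. Of these, 31 passed the adjusted p, 7 upward and 24 downward, beside 28.4% of all tested genes, and the median log2 fold change of the 63 was -0.10 against 0.01 over all tested genes. By the rule of a call 1 was higher, beside 2.28% of all tested genes, and 5 were lower, beside 2.98%. CAMSAP3, STMN4 and TTBK1 reached the expression filter only through the controls, where they were high, so these 3 had to be lower after knockdown, and they are part of the counts. Nothing particular to microtubule genes, or to any role among them, is read from these counts.

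Among the lattice-binding MAPs and their relatives 10 of 15 tested genes passed, 1 upward and 9 downward, beside the same 28.4% of all tested genes, which is also the background of the counts by role that follow. TPPP3, a promoter of tubulin polymerisation, was the only call, at 5.91, 9.81 and 8.52 FPKM in controls and 3.04, 3.62 and 2.69 FPKM after knockdown, which is -1.43 on the log2 scale (edgeR, adjusted p = 8.21e-06). Close relatives of the members were chosen after their values had been seen. MAP7D1, a paralog of MAP7, rose by 0.43 on the log2 scale (edgeR, adjusted p = 0.000691), opposite in sign to MAP7. MAP7D3, another relative of MAP7, was at 0.08 and did not pass (edgeR, adjusted p = 0.699). DCLK2, the paralog of DCLK1, fell by 0.70 (edgeR, adjusted p = 0.000913), while DCLK1 was at -0.03. MAP9, a protein of the spindle and of cilia, fell by 0.94 (edgeR, adjusted p = 7.09e-07), and was called lower without the replicate 3 library of either group. The differences between paralogs were not themselves tested.

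Proteins that follow the growing plus end gave 6 of 12 past the threshold, 2 upward and 4 downward, and the only call was SLAIN1, which promotes microtubule growth, at -1.23 on the log2 scale (edgeR, adjusted p = 0.000600). Of the 3 minus-end binding proteins 1 passed, which was CAMSAP3, tested only through its level in the controls. It was at 1.87, 1.98 and 1.99 FPKM in controls and 0.946, 0.583 and 0.747 FPKM after knockdown. CAMSAP3 had a log2 fold change of -1.41, given without a p-value since the filter fixed its direction. Its relatives CAMSAP1 and CAMSAP2, at 0.19 and -0.08, did not pass. Of 6 severing enzymes 2 passed in opposite directions, and the larger difference was that of KATNAL1, a catalytic katanin, at -0.89 (edgeR, adjusted p = 1.92e-07).

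Stathmins bind free tubulin and promote disassembly. In this group 3 of 4 genes passed, all downward, beside 28.4% of all tested genes. STMN4, which was tested only through its level in the controls, had the largest difference of the list. It had 51, 47 and 40 counts in controls and 6, 9 and 8 after knockdown. This is -2.68 on the log2 scale with an SE of 0.33, given without a p-value since the filter fixed its direction. STMN2, whose level of 290 FPKM in si-SCR was above that of MAP1B, differed by only -0.38 (edgeR, adjusted p = 0.000859).

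Kinases that phosphorylate MAPs and tau gave 3 of 12 past the threshold, all downward and none called, beside 28.4% of all tested genes, and TTBK1 among them was tested only through its level in the controls. CDK5R2, an activator of the neuronal kinase CDK5, had the largest difference, at 42.7, 45.9 and 43.9 FPKM in controls and 27.1, 32.2 and 26.0 FPKM after knockdown, which is -0.70 on the log2 scale (edgeR, adjusted p = 3.61e-06). Enzymes that modify tubulin gave 6 of 11, 3 in each direction. VASH2, which removes the last tyrosine of α-tubulin, was at 2.15, 1.84 and 3.15 FPKM in controls and 4.82, 5.21 and 5.31 FPKM after knockdown, and was called higher at 1.02 on the log2 scale (edgeR, adjusted p = 7.33e-06). That value is at the limit of a call, and without the si-SCR library of replicate 2 no gene of the 63 was called higher. Without the si-SCR library of replicate 1 or the si-CyCoNP library of replicate 3 its relative VASH1 was called in place of VASH2. TTLL7, which adds glutamate chains to β-tubulin, was lower at -1.15 (edgeR, adjusted p = 3.45e-07).

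**Figure D5:**
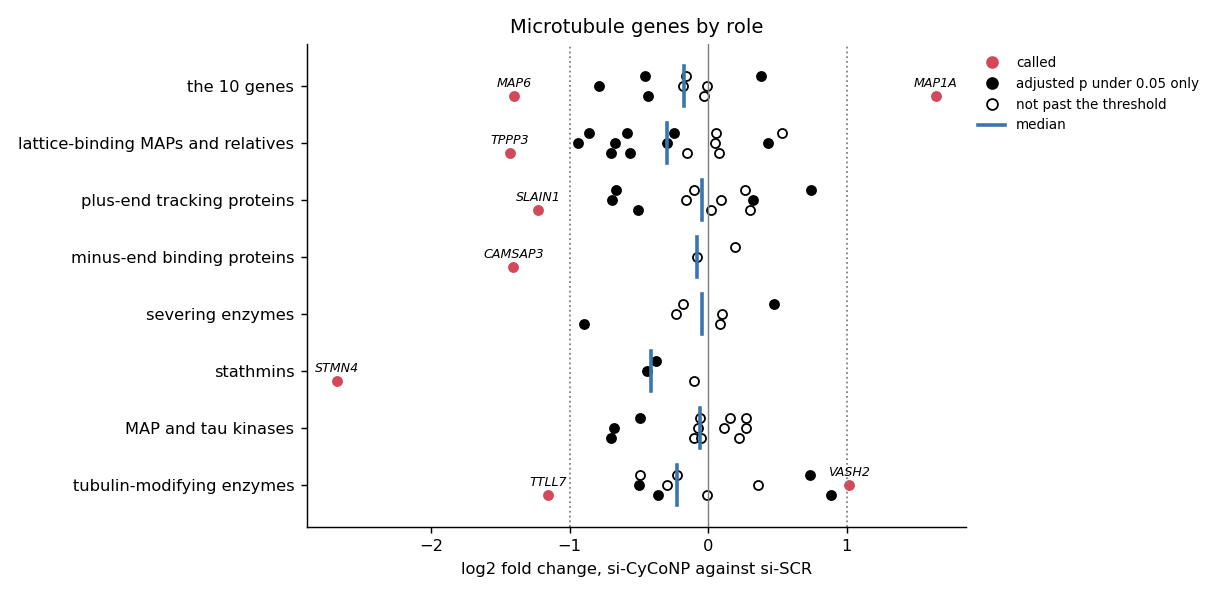
Fitted log2 fold change in si-CyCoNP against si-SCR (horizontal axis) of the 10 genes and of the 63 other tested microtubule genes, in rows by role, with red points for called genes, black points for an adjusted p under 0.05 alone, open points otherwise and a blue line at each row's median. Red points are labelled, and STMN4 at -2.68 lies furthest to the left and MAP1A at 1.64 furthest to the right.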

How the data were processed

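Total RNA of 6 SK-N-BE libraries (3 si-SCR, 3 si-CyCoNP) was sequenced by the authors after removal of ribosomal RNA. Per the labels and the study's methods, reads were trimmed with Trimmomatic 0.39 and cutadapt 3.2, filtered against ribosomal RNA with Bowtie2 2.4.2 and aligned with STAR 2.7.7a to GRCh38 with Ensembl 99. The authors deposited raw counts per gene from the gene counting mode of STAR, which keeps uniquely mapping fragments. The authors also deposited FPKM, which are the same counts divided by gene length and library total, and the tables gave 1 length, within a tolerance of 1e-06, for each of the 22586 genes counted in 2 or more libraries. Whether duplicate fragments were removed is not clear from the sources used here, so counting error may understate the measurement error. Count totals are below the stated number of sequenced reads, and what separates them was not analysed here.

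Groups and replicate numbers came from the sample titles, and the labels give no batch. The 13966 genes whose mean FPKM reached 1 in a group were tested by quasi-likelihood in edgeR 4.0.16 on TMM-normalised counts in R 4.3.3, with Benjamini-Hochberg adjustment over all of them. A call needed a fold change over 1 or under -1 on the log2 scale beside an adjusted p under 0.05. The fit was also tested on simulated counts, drawn with the mean levels, library sizes and dispersion of these data. Levels are FPKM without correction for library composition, while fold changes carry TMM scaling, so ratios of printed levels differ slightly from fitted ones. Overlap of groups was judged on normalised counts.

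Named were all 10 members, LINC02381, every called gene of each role group or else its largest difference past the adjusted p, and the 3 genes most like MAP1A. MAP7D1, MAP7D3, DCLK2, MAP9, EML6, CAMSAP1, CAMSAP2, STMN2, VASH1 and TTBK1 fall outside that rule. They were named after their values were seen, as were marker genes. The values of 1 marker gene, and the marker sum that contains it, are not reported here. The members, the lists and the rules were chosen with earlier results of these data known. Transcripts were the canonical ones of GENCODE 44, and LINC02381-201 for CyCoNP. MAP1S, MAP7 and MAPT share exon bases only with genes on the opposite strand that had at most 2 counts in a library. The alternatives were DESeq2 1.42.0, other scalings and filters, a replicate block, limma 3.58.1 on log2(FPKM + 1) or log2(FPKM + 0.1), glmTreat of edgeR (a test for more than 1 log2 unit), and leaving out each library. Level order per canonical transcript length and the marker sum without VIM were added after the data were seen.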

Additional observations from a re-analysis of the deposited data

How the results depend on the processing

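Each member was recomputed under 15 alternatives. Of the 150 pairs of member and alternative, 136 kept the direction and the side of the threshold. MAP1A stayed between 1.52 and 1.75 and MAP6 between -1.4973 and -1.0805 on the log2 scale. MAPT turned positive at 0.0615 with library totals alone and at 0.0283 and 0.0492 in limma with a pseudocount of 1 and 0.1. Without each library in turn MAPT ranged from -0.0729 to 0.0469, and was positive without the si-SCR library of replicate 1 or 2 or the si-CyCoNP library of replicate 3. DCLK1 turned positive at 0.0386 with library totals alone and at 0.0310 and 0.0350 in limma. The cause was not tested. Library totals alone move the median of all genes from 0.01 to 0.07.

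DCX was past the threshold at 13 of 15 alternatives and not in limma, with values of -0.37 and -0.39. Without each library in turn MAP1B ranged from -0.32 to -0.02. In these fits 6 to 8 of the 10 members passed the adjusted p, beside 23.1% to 31.2% of all tested genes. When more than 1 log2 unit was tested for, 0 members and 1 other microtubule gene (STMN4) were called lower and 0 others were called higher. STMN4 reached the expression filter only through its level in the controls. Of all tested genes 0.952% were called in either direction by that test. In limma with a pseudocount of 1, 0 others were called higher and 2 lower, STMN4 and TPPP3, beside 207 and 180 of all 13966 tested genes. Without each library in turn 0 to 1 of the others were called higher and 5 to 7 lower, the highest count without the si-SCR library of replicate 3, where EML6 and MAP9 were added. Over all tested genes 295 to 400 were called higher and 359 to 507 lower in those fits.

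The labels do not state whether the replicate numbers pair the libraries, and the main fit left them out. Deviations of same-numbered libraries correlated weakly, at 0.0907, 0.0727 and 0.1081, although each library correlated best with its own number. These values do not settle whether same-numbered libraries belong together. With the replicate number as a block, 7 members passed the adjusted p, MAP1B among them (log2 fold change -0.17, edgeR, adjusted p = 0.0353), and 36 of the other genes in place of 31. The share of all tested genes that passed also rose, to 34.2% in place of 28.4%.

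Among the 10 members depth limits MAPT and MAP7 most, at 45 to 98 counts per library, and of the other genes named STMN4 had 6 to 51 and CAMSAP3 12 to 46.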
